A study of Mus musculus with 6 samples.

Results

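The 5 genes that encode the subunits of NF-κB (Nfkb1, Nfkb2, Rel, Rela and Relb) were followed in stimulated mouse macrophages with and without a deficiency of S-adenosylhomocysteine hydrolase (SAHH). They were taken by name from the 54532 genes of the deposited expression table, and all 5 were found and passed the filter on low values. The libraries came from peritoneal macrophages, gathered 4 days after a thioglycollate injection and left to adhere for 6 h, and each was made from 1.3 µg of total RNA. All cells, controls included, had received interferon-γ (2 ng/mL) and lipopolysaccharide (10 ng/mL) for 8 h. The 3 control libraries are named shControl in their titles and wild type in the genotype field. The 3 libraries of the other group are named SAHH-KO in their titles and a knockdown in the genotype field, and SAHH-KO is used here as a name only. The labels give no mouse strain, age or method of targeting, and nothing in them says that the 3 libraries of a group stem from different mice or dishes. The p-values therefore rest on the spread between these libraries, and that spread may be only technical. No unstimulated library was analysed here, so no value below describes induction by the stimuli.

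NF-κB is a family of dimeric transcription factors that share the Rel homology region, which binds DNA and holds the dimer together. In resting cells IκB proteins keep the dimers in the cytoplasm. In the canonical route, Toll-like receptors and cytokine receptors activate the IκB kinase complex, IκB is destroyed, and dimers such as p50 with p65 enter the nucleus within minutes and switch on cytokine and chemokine genes. In the non-canonical route, receptors such as CD40 stabilise the kinase NIK (Map3k14), the p100 precursor is cut to p52, and p52 with RelB enters the nucleus more slowly. Nfkb1 encodes p105, the precursor of p50, and Nfkb2 encodes p100, the precursor of p52. Both precursors carry ankyrin repeats at the end that is removed and act as IκB proteins before they are cut. Rela (p65), Rel (c-Rel) and Relb (RelB) encode the subunits with a transactivation domain. In the GENCODE M21 annotation the principal proteins of the precursor genes have 971 (Nfkb1) and 878 (Nfkb2) residues, and those of Rela, Rel and Relb have 549, 588 and 558. Nfkb1, Rela and Rel are treated below as canonical and Nfkb2 and Relb as non-canonical subunits.

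The libraries held 15540442 to 17748745 reads assigned to genes. Ahcy, the gene of SAHH, read 25.8, 22.6 and 24.4 FPKM in control and 5.51, 5.50 and 6.23 FPKM in SAHH-KO, which goes with the labels. Of 12 macrophage markers 9 reached 1 FPKM in at least 3 libraries, among them Cd68, Cd14, Csf1r and Adgre1, while Cd163 had 0 reads and Mertk 2 in all. The 12 summed to 8662 to 8936 FPKM in control and 9747 to 11041 FPKM in SAHH-KO. Most of each sum was Lyz2 (means of 5653 and 6616 FPKM) and Cd14 (2025 and 2378 FPKM). Csf1r was lower in SAHH-KO (means of 106.8 and 90.97 FPKM), as was Mrc1 (0.462 and 0.134 FPKM). The other macrophage markers that reached 1 FPKM had higher means in SAHH-KO. Of the markers of resident peritoneal macrophages, Gata6 and Timd4 had 0 reads. In control and SAHH-KO, Icam2 had means of 1.60 and 0.861 FPKM and Cd5l of 0.0947 and 0.371 FPKM. Dendritic cells and B cells are known for high levels of Relb, Rel and Nfkb2. The 8 dendritic cell markers summed to 1.13 to 1.41 FPKM in control and 1.09 to 1.37 FPKM in SAHH-KO. Ccr7, Batf3 and Cd209a had 0 reads, while Itgax had means of 1.05 and 0.973 FPKM and Xcr1 of 0.205 and 0.187 FPKM. The 7 B cell markers summed to 0 to 0.136 FPKM in control and 0.242 to 0.370 FPKM in SAHH-KO. Ms4a1 and Ebf1 had 0 reads, while Cd79a had means of 0.0410 and 0.173 FPKM and Pax5 of 0.0066 and 0.0832 FPKM. The 7 neutrophil markers summed to 7.08 to 8.32 FPKM in control and 0.0496 to 0.473 FPKM in SAHH-KO. Ly6g, S100a9 and Cxcr2 had 0 reads, while S100a8 had means of 4.635 and 0.189 FPKM and Mmp8 of 3.24 and 0.0165 FPKM. The B cell, neutrophil and macrophage sums did not overlap between groups, and their part in the results below was not tested. T and natural killer cell, mast cell and eosinophil, and fibroblast and mesothelial markers summed to under 0.1 FPKM in each library. In RNA from whole cultures, fewer cells of a type and less RNA per cell cannot be told apart.

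Transcripts of all 5 subunits were higher in SAHH-KO. Nfkb2 rose most, 3.21-fold, followed by Relb at 2.55-fold and Rel at 2.47-fold, and Nfkb1 and Rela rose least, 1.88-fold and 1.82-fold. These folds are ratios of group means in FPKM (fragments per kilobase of gene and per unit of library size, as scaled by the authors). All 5 passed limma's test across 10362 genes at a Benjamini-Hochberg adjusted p under 0.05. Over all tested genes 26.4% were called higher and 26.8% lower. That split rests on how libraries are scaled: 2736 genes were called higher and 2782 lower as deposited, against 2006 and 3894 with values rescaled to TPM and 2033 and 3905 with scaling by assigned reads. These scalings moved the median log2 fold change of all tested genes from -0.0093 to -0.16 and -0.14, and all 5 subunits were still higher and past the threshold. The library size behind the deposited values was 1.05 to 1.07 times the assigned reads in control and 0.937 to 0.960 times in SAHH-KO, and its part in the folds was measured only by these rescalings. In each of the 5 genes the lowest SAHH-KO library lay above the highest control library, as it did for 30.7% of all tested genes.

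**Figure D1:**
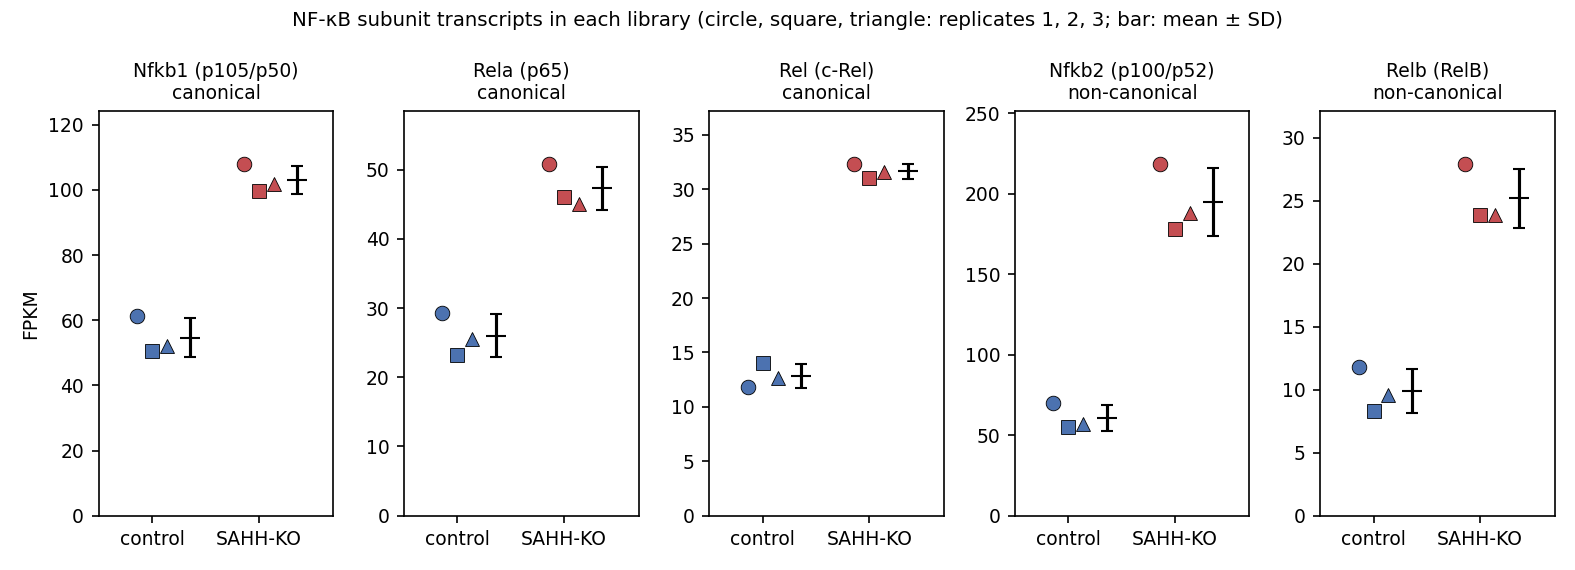
FPKM (linear axis from 0, a scale of its own for each gene) of the 5 subunit genes in the 3 control and 3 SAHH-KO libraries, with the mean and SD of each group (n = 3). No gene shows an overlap between groups, and replicate 1 is the highest control library for each gene except Rel, where it is the lowest.

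Nfkb1 is a minus-strand gene on chromosome 3 (GRCm38, 135584655 to 135691547) with 25 exons in its principal transcript. Its transcript stood at 61.4, 50.6 and 52.02 FPKM in control and at 107.9, 99.6 and 101.6 FPKM in SAHH-KO. The lowest SAHH-KO value was 1.62 times the highest control value. The means were 54.7 ± 5.89 and 103 ± 4.31 FPKM (SD, n = 3), with a log2 fold change of 0.91 (SE 0.0920, limma adjusted p = 8.98e-05).

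Rela, the gene of the main transactivating subunit of canonical dimers, lies on chromosome 19, bases 5637483 to 5648130 on the plus strand, with 11 exons in its principal transcript. It read 29.3, 23.2 and 25.5 FPKM in control and 50.8, 46.0 and 45.1 FPKM in SAHH-KO. Control replicate 1 was again the highest of its group, and the gap to the lowest SAHH-KO library was 1.54-fold. The means were 26.0 ± 3.10 and 47.3 ± 3.07 FPKM, a log2 fold change of 0.84 and the smallest of the 5 (SE 0.101, limma adjusted p = 0.000223).

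Rel encodes c-Rel, a subunit found mainly in blood cells. It lies on chromosome 11, bases 23736847 to 23770970 on the minus strand, with 1 annotated transcript of 10 exons. It read 11.8, 14.01 and 12.6 FPKM in control and 32.3, 31.0 and 31.6 FPKM in SAHH-KO. The SAHH-KO libraries were close together (coefficient of variation 2.05%, against 8.71% in control), and the lowest of them was 2.21 times the highest control. Between means of 12.8 ± 1.12 and 31.6 ± 0.650 FPKM, the log2 fold change came to 1.24 (SE 0.0841, limma adjusted p = 1.01e-05).

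Nfkb2 lies on chromosome 19, bases 46304737 to 46312090 on the plus strand, with 22 exons in its principal transcript. It went from 70.0, 55.2 and 56.8 FPKM in control to 218, 178 and 188 FPKM in SAHH-KO. Replicate 1 was highest in both groups, and the lowest SAHH-KO library was 2.54 times the highest control. The means were 60.7 ± 8.11 and 195 ± 21.03 FPKM (log2 fold change 1.67, SE 0.116, limma adjusted p = 1.16e-05), and 97.7% of tested genes had a lower log2 fold change.

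Relb, whose product pairs with p52, lies on chromosome 7, bases 19606217 to 19629438 on the minus strand, with 12 exons in its principal transcript. It read 11.8, 8.32 and 9.59 FPKM in control and 27.9, 23.9 and 23.9 FPKM in SAHH-KO. This was the most variable of the 5 in control, with a coefficient of variation of 17.8%, and the groups were still 2.02-fold apart at their nearest libraries. The means were 9.91 ± 1.76 and 25.2 ± 2.34 FPKM (log2 fold change 1.27, SE 0.126, limma adjusted p = 7.89e-05).

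The number of reads behind these values ran from 530 (Relb, control replicate 2) to 21644 (Nfkb1, SAHH-KO replicate 1). At the shallowest of them the 95% Poisson interval was 7.63 to 9.06 FPKM around 8.32, narrower than the range of the 3 control libraries. Such intervals hold counting error alone, since no molecular identifiers are described. At most 0.650% of the 50-base words of a subunit gene (Relb) also occurred in another gene. Nfkb2 overlaps the end of Psd on the opposite strand by 4 bases in the deposited coordinates, and Psd stood at 1.85 and 2.33 FPKM. Gm43430, inside the span of Nfkb1, stood at 0.178 and 0.164 FPKM. The sources used here do not say whether counting used the strand.

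**Figure D2:**
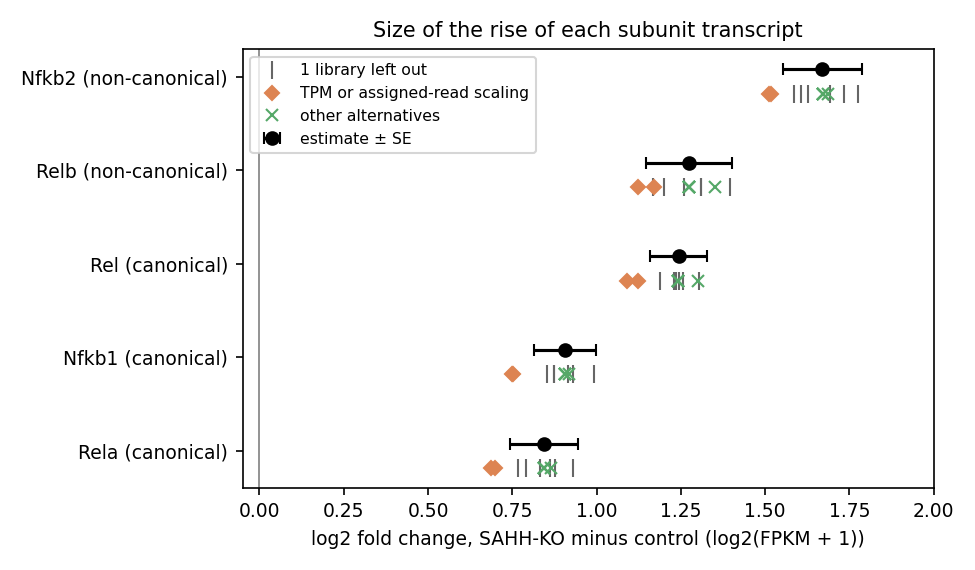
Log2 fold change (SAHH-KO minus control, log2(FPKM + 1)) of each subunit gene with its SE as black points, and below each point the estimates with 1 library left out (ticks), with TPM or assigned-read scaling (diamonds) and with the other settings (crosses). All estimates lie above 0, between 0.69 for Rela and 1.78 for Nfkb2, and those of Nfkb2 stay above those of the other 4 genes.

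Promoter sequences were set beside these values because genes of this family are known, as background, to carry NF-κB sites in their own promoters. RefSeq windows (GRCm38.p6) of 300 bases, from 250 before to 50 after a transcript start, were at hand for 3 of the 5 genes: 1 for Rel, 1 for Rela and 3 for Nfkb2. Those of Nfkb1 and Relb were not analysed here. Matches to the 10-base κB consensus were searched on both strands, overlapping matches counted as 1 place, and positions are counted from the transcript start, with the base before it as -1. Of all 32851 windows in that set, 8.46% hold a match. The window of Rel holds 1 place, at -92 to -82. The first window of Nfkb2 holds 2 places, at -39 to -29 and -11 to -2, the second window 2 and the third 1, which the second also holds. The window of Rela holds none. With windows for 3 of the 5 genes, and more of them for Nfkb2, matches cannot be read against the size of the rise. A match of letters is a description and shows no binding, and a window without one says only that these letters are not in it.

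The upstream stretches of Rel (chr11:23770971-23771219, minus strand) and Rela (chr19:5637291-5637482, plus strand) that lie outside annotated exons are given 5′ to 3′ along the gene, since they show the promoter with a κB match beside the one without. Capitals mark the match.
Rel: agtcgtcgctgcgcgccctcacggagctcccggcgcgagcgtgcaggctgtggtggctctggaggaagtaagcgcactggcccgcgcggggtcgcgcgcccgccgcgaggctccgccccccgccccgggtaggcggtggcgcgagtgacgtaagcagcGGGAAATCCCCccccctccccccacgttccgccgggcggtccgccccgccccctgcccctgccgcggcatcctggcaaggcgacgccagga
Rela: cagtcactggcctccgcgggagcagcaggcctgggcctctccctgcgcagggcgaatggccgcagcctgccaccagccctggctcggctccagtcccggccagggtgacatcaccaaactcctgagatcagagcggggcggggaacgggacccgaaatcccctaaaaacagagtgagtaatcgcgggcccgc

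For Nfkb2 the matches are given with 5 bases on each side, in the order in which they lie along chromosome 19 (plus strand). GENCODE M21 starts this gene upstream of the deposited start. It places sites a and b in exons of Nfkb2 and of AC114539.1, a gene on the opposite strand. Site c lies in an exon of AC114539.1 and site d in an exon of Nfkb2.
Nfkb2 site a (chr19:46304698-46304708): gtcacGGGAATTCCCCccctc
Nfkb2 site b (chr19:46304726-46304735): cgaaaGGGGCTTTCCcggct
Nfkb2 site c (chr19:46305459-46305468): cggcaGGAATGTCCCcacaa
Nfkb2 site d (chr19:46305705-46305714): ttttcGGGACTTTCCtaagc

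The subunits did not rise by equal amounts, and the difference was examined as the ratio of one transcript to another within each library, which does not depend on library scaling. The ratio of Nfkb2 to Nfkb1, the precursor genes of both routes, was 1.14, 1.09 and 1.09 in control and 2.03, 1.79 and 1.85 in SAHH-KO. The ratio of Relb to Rela was 0.402, 0.359 and 0.376 in control and 0.550, 0.519 and 0.530 in SAHH-KO. Both ratios were higher in each SAHH-KO library than in any control library. The differences in log2 ratio were 0.77 and 0.49, so that the non-canonical transcript rose more than its canonical counterpart in the precursor and in the transactivating pair.

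**Figure D3:**
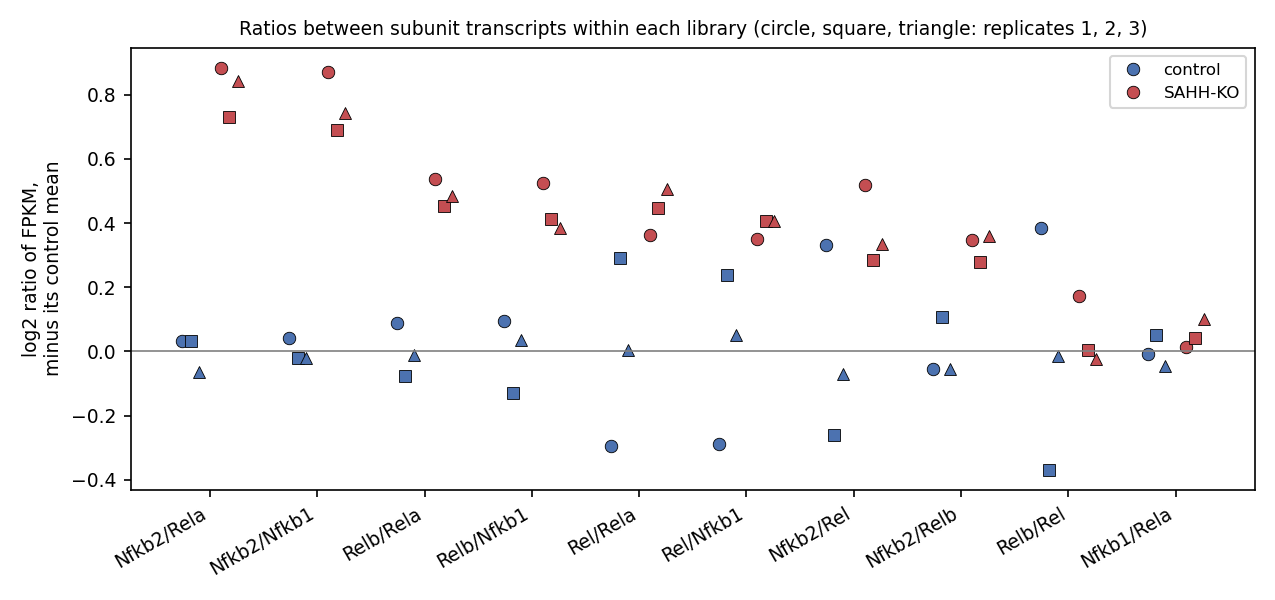
Log2 ratio of FPKM for the 10 pairs of subunit genes in each library, with the mean of the control libraries set to 0. The groups are apart for 7 pairs, with Nfkb2/Rela at 0.82 and Nfkb2/Nfkb1 at 0.77, and overlap for Nfkb2/Rel, Relb/Rel and Nfkb1/Rela. The pairs share genes and are not independent, and pairs of other genes were not compared.

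Rel did not follow the division by route. Its ratio to Rela was 0.402, 0.604 and 0.496 in control and 0.636, 0.674 and 0.701 in SAHH-KO, so this canonical subunit was also higher against Rela, by 0.44 on the log2 scale (range between single libraries 0.07 to 0.80). Control replicate 1 weighs on this value: without it the difference was 0.29 for Rel/Rela, and for Rel/Nfkb1 0.24 in place of 0.39. The ratio of Relb to Rel was 1.00, 0.594 and 0.759 in control and 0.864, 0.770 and 0.755 in SAHH-KO. Here the groups overlapped, with a difference in log2 ratio of 0.05 that ran from -0.41 to 0.54 between single libraries. Nfkb1 and Rela kept close to each other, with ratios of 2.09, 2.18 and 2.04 in control and 2.12, 2.17 and 2.26 in SAHH-KO, a difference of 0.05 in log2 ratio (range between single libraries -0.04 to 0.14, and 0.03 to 0.08 with 1 library left out: 0.08 without control replicate 2, 0.03 without control replicate 3 and 0.03 without SAHH-KO replicate 3). Nfkb2 exceeded Relb by 0.33 without overlap, and its gain on Rel, 0.38, overlapped (range -0.05 to 0.78), with 0.25 without control replicate 2.

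In all, 10 pairs were compared, and the groups were apart in 7. An exact two-sided permutation test over the 6 libraries gave p = 0.1 for each of these 7, the smallest value that 3 against 3 allows, or 0.143 adjusted over the 10 pairs. For Nfkb2/Rel, Nfkb1/Rela and Relb/Rel the exact permutation test gave p = 0.2, 0.3 and 0.9, or 0.25, 0.333 and 0.9 adjusted. This test cannot reach p under 0.05 with 3 libraries a group, and none of these p-values shows that a pair of genes changed alike.

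As a summary by route, the mean log2 FPKM of Nfkb2 and Relb minus that of Nfkb1, Rela and Rel was 0.05, -0.25 and -0.13 in control and 0.48, 0.32 and 0.35 in SAHH-KO. The groups did not overlap, and the means differed by 0.49. With Rel left out, a choice made after its values were seen, the difference was 0.63. Against Rel alone it was 0.22, and there the groups overlapped, with control replicate 1 above the SAHH-KO libraries. The summed FPKM of the 5 genes was 164 ± 17.8 in control and 402 ± 31.1 in SAHH-KO, of which the canonical genes made up 93.5 ± 7.94 and 182 ± 7.84 and the non-canonical genes 70.6 ± 9.82 and 220 ± 23.3 FPKM. The non-canonical genes thus held 42.9% ± 1.27 of the sum in control and 54.7% ± 1.53 in SAHH-KO.

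The order of the levels depends on the gene length used. With the deposited lengths, control levels ran from Nfkb2 through Nfkb1, Rela and Rel to Relb. Nfkb2 was 1.09 to 1.14 times Nfkb1 within each control library, though their ranges over the 3 libraries overlapped (55.2 to 70.0 and 50.6 to 61.4 FPKM). Relb was 1.00 times Rel in control replicate 1 and lower in the other two, so these neighbours are not separated by their spread. The order was the same in SAHH-KO, where Rel (31.0 to 32.3 FPKM) and Relb (23.9 to 27.9 FPKM) did not overlap. The deposited length of Nfkb1, 12061 bases, joins all annotated exons, while its principal transcript has 4117 bases. That of Nfkb2, 3289 bases, is shorter than its principal transcript of 3846 bases, part of which may not have been counted. The level of Nfkb2 and the non-canonical share per principal transcript may therefore be too low. Per length of the principal transcript, a choice made after the values were seen, Nfkb1 stood at 160 ± 17.3 FPKM in control and 302 ± 12.6 in SAHH-KO, above Nfkb2 at 51.9 ± 6.93 and 167 ± 17.98 FPKM. Relb then stood at 17.4 ± 3.10 and 44.3 ± 4.11 FPKM, above Rel at 12.8 ± 1.12 and 31.6 ± 0.650, while Rela kept its value. The share of the non-canonical genes was then 25.8% ± 0.865 in control and 35.6% ± 1.38 in SAHH-KO. The fold change of each gene is the same with either length.

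**Figure D4:**
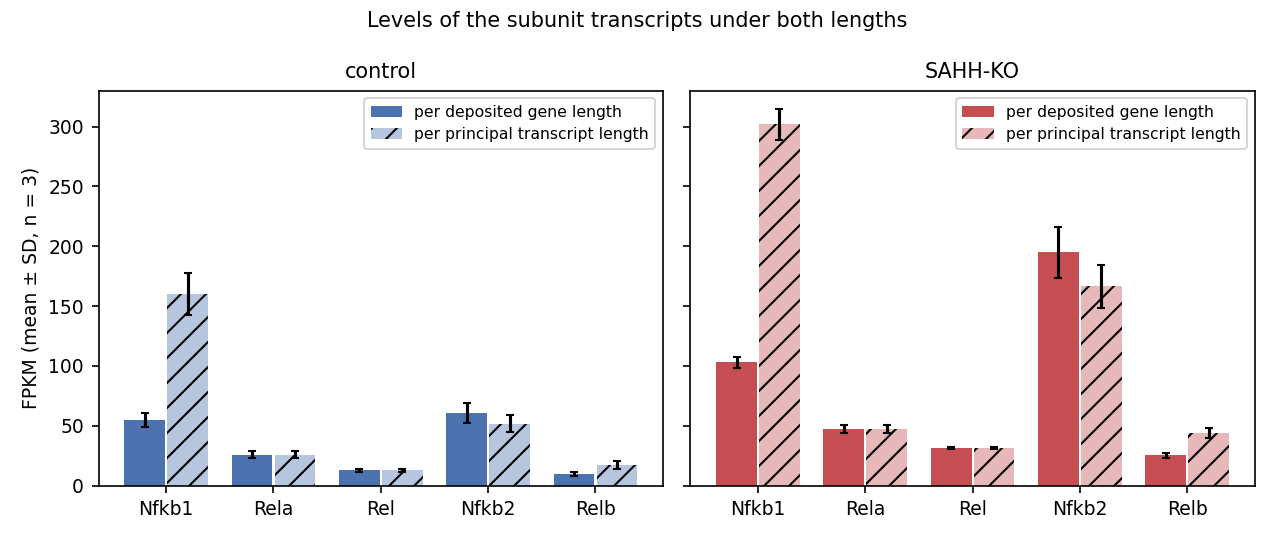
Mean FPKM ± SD (n = 3) of the 5 subunit genes in control and SAHH-KO, per deposited gene length (solid) and per length of the principal transcript (hatched), on a linear axis from 0. Nfkb1 is the highest of the 5 in both groups per principal transcript, at 160 and 302 FPKM, while Nfkb2 is the highest per deposited length, at 60.7 and 195 FPKM.

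The genes with the pattern most like each subunit were taken from 5944 tested protein-coding genes, by the root mean square difference over the 6 libraries of log2(FPKM + 1) after subtraction of each gene's control mean. Nearest to Nfkb2 were Ikbke (0.0320) and Akna (0.0434), which went from 21.6 ± 2.53 to 72.3 ± 7.95 and from 18.9 ± 3.08 to 60.0 ± 7.60 FPKM. Nearest to Relb were Rnf19b (0.0449) and Pstpip1 (0.0463), and nearest to Rel were Aftph (0.0456) and Asns (0.0460). Nearest to Nfkb1 were Pld3 (0.0391) and Sh3tc1 (0.0418), and nearest to Rela were Stk40 (0.0315) and D17Wsu92e (0.0433). Within the family Nfkb1 and Rela were the closest pair, at 0.0578, and Rel and Relb the next, at 0.208, while Nfkb2 lay at 0.285 or more from each of the others.

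Other genes of the pathway were read from lists set beside the members. For comparison, 26.4% of all tested genes were called higher and 26.8% lower. Of the 6 genes of the IκB family, which hold NF-κB dimers in the cytoplasm or modify them in the nucleus, 5 were higher and 1 lower. Nfkbia, the gene of the classical inhibitor IκBα, rose from 326 ± 19.3 to 835 ± 64.0 FPKM and Nfkbib from 54.7 ± 4.77 to 135 ± 15.1 FPKM (limma adjusted p = 6.71e-06 and 2.65e-05). Nfkbiz, a nuclear IκB protein gene, and Nfkbie rose 4.41-fold and 6.48-fold. Nfkbid, named after its values were seen, fell from 40.6 ± 2.26 to 26.8 ± 3.77 FPKM (limma adjusted p = 0.00242). The inhibitor genes Nfkbia, Nfkbib and Nfkbie thus rose by 2.56-fold, 2.46-fold and 6.48-fold, beside 1.82-fold to 3.21-fold for the subunits.

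Of 15 canonical signalling genes, from the adaptor Myd88 to the kinase complex, 6 were higher and 1 lower. The shares over all tested genes were 26.4% and 26.8%. The median log2 fold change of the list was 0.19, beside -0.0093 over all tested genes. With TPM and with assigned-read scaling 3 were higher and 3 lower, so the balance within this list rests on the scaling. Irak2, a kinase of Toll-like receptor signalling, rose from 26.7 ± 2.05 to 67.9 ± 6.22 FPKM, and Rnf31, the catalytic subunit of the linear ubiquitin ligase, from 5.21 ± 0.739 to 15.2 ± 1.23 FPKM. Tab2 rose 1.81-fold. Sharpin rose 1.28-fold (limma adjusted p = 0.0157), a call lost with TPM (0.113), assigned-read scaling (0.118) and without SAHH-KO replicate 1 (0.0586) or 3 (0.0643). The following were named after their values were seen. Ikbkb, the kinase that marks IκB for destruction, stood at 3.99 ± 0.272 and 5.10 ± 0.236 FPKM (limma adjusted p = 0.0201), a call lost with TPM (0.157), assigned-read scaling (0.145) and without control replicate 3 (0.0637) or SAHH-KO replicate 3 (0.0939). Ikbkg, the regulatory subunit of the same complex, stood at 5.53 ± 0.146 and 5.52 ± 0.0936 FPKM (limma adjusted p = 0.984). The lower member, Traf6, went from 5.997 ± 0.475 to 4.69 ± 0.0222 FPKM (limma adjusted p = 0.0181), a call lost without SAHH-KO replicate 2 (0.0530) or 3 (0.0645).

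Of 20 non-canonical genes 15 were tested, 9 of them higher and 2 lower, beside 26.4% and 26.8% of all tested genes. Their median log2 fold change was 0.55. The receptor gene Cd40 rose from 18.2 ± 2.03 to 136 ± 11.6 FPKM, 7.503-fold, and Tnfrsf11a, the gene of RANK, 2.25-fold. Birc3 and Birc2, whose products take part in the destruction of NIK, rose 2.35-fold and 2.82-fold. Chosen after their values were seen, the kinase genes of this route did not pass the test: Map3k14 (NIK) stood at 1.98 ± 0.334 and 2.34 ± 0.302 FPKM (limma adjusted p = 0.274) and Chuk (IKKα) at 14.5 ± 2.88 and 13.8 ± 0.936 FPKM (limma adjusted p = 0.790). Traf3, which recruits NIK for destruction, fell from 10.3 ± 1.28 to 7.26 ± 0.470 FPKM (limma adjusted p = 0.00705), as did the ligand gene Tnfsf12, from 5.95 ± 0.377 to 3.44 ± 0.0426 FPKM. Of the 5 members not tested, Cd40lg and Tnfrsf13c had 0 reads in all libraries.

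Of 13 regulators of NF-κB proteins 6 were higher and 2 lower (median 0.27), beside 26.4% and 26.8% of all tested genes. Tnfaip3, which encodes the deubiquitinase A20, rose from 42.2 ± 2.61 to 90.8 ± 1.94 FPKM, Tnip2 1.69-fold and Fbxw11, a subunit of the ligase that marks IκB, 1.29-fold. Tnip3, named after its values were seen, fell from 8.34 ± 1.22 to 5.83 ± 0.993 FPKM (limma adjusted p = 0.0223), a call lost without control replicate 2 (0.0669), control replicate 3 (0.0569) or SAHH-KO replicate 1 (0.0717) and without the filter on low values (0.0793). With TPM 3 of the 13 genes were higher, and the call of Fbxw11 was lost (limma adjusted p = 0.0551). Of the NFAT genes, the other genes with a Rel homology region, 4 were tested with limma and 0 were called higher. At an unadjusted p under 0.05, 0 were higher and 2 lower, and the share of all tested genes at that threshold is not given here. With 4 genes, 0 higher cannot be set apart from the 26.4% of all tested genes. Nfatc3 fell from 5.46 ± 0.397 to 3.58 ± 0.0672 FPKM (limma adjusted p = 0.00154). Without control replicate 3, with TPM and with assigned-read scaling 2 of them were lower.

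Of 33 textbook NF-κB target genes 28 were tested, 17 of them higher and 7 lower, beside 26.4% and 26.8% of all tested genes. Their median log2 fold change was 0.48. The chemokine gene Ccl5 went from 129 ± 10.9 to 1846 ± 175 FPKM, and Ccl22, Saa3 and Traf1 rose 3.72-fold, 5.06-fold and 2.99-fold. The 7 lower genes were Il1a, Il1b, Ccl2, Csf2, Csf3, Plau and Ier3, named after their values were seen, of which Csf3 and Il1b lost the call without the filter on low values (limma adjusted p = 0.0533 and 0.0566). Of these Ier3, an early response gene, fell from 814 ± 38.7 to 287 ± 66.2 FPKM (limma adjusted p = 0.000104). The part of the targets called lower, 7 of 28, was close to the 26.8% of all tested genes. The part called higher, 17 of 28, lay above the 26.4% of all tested genes.

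**Figure D5:**
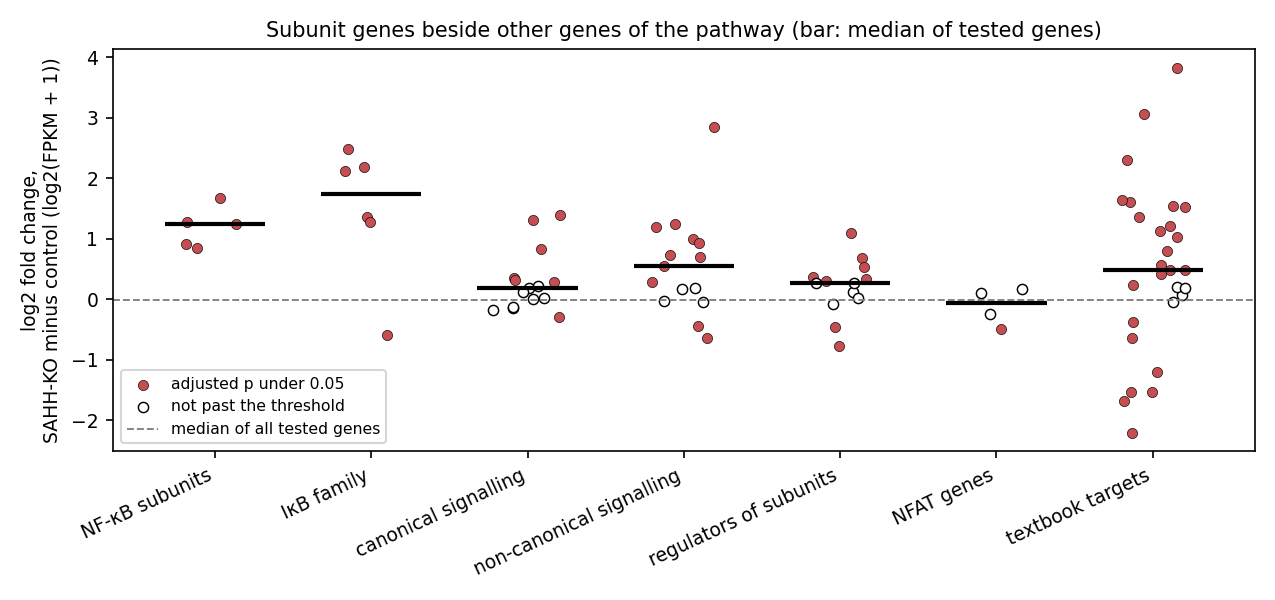
Log2 fold change (SAHH-KO minus control) of the tested genes of each list, filled where the limma adjusted p was under 0.05, with the median of each list as a bar and the median of all tested genes (-0.0093) as a dashed line. The 5 subunit genes lie between 0.84 and 1.67, and the targets spread from -2.21 to 3.83.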

How the data were processed

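The authors deposited 1 table of FPKM values with gene lengths and coordinates. Per the submitters' processing notes, FastQC, Trim Galore, STAR and featureCounts were used with builds GRCm38 and mm10; versions, settings, strand use and the step from counts to FPKM are not given in the sources used here. FPKM times gene length came out in equal steps per library (100% of values above 0 within 0.01 of a whole read), from which the reads per gene were worked out. Genes with at least 1 FPKM in at least 3 libraries (10362) were tested with limma 3.58.1 in R 4.3.3 (intensity trend, group as the only term, two-sided) on log2(FPKM + 1), with Benjamini-Hochberg adjustment over all tested genes. On that scale a fold change is understated for low genes. Ratios between subunits were taken in Python 3.11.15 from FPKM without a pseudocount and tested with SciPy 1.17.1. Within groups no pair of libraries was identical, and chi-square per degree of freedom was at least 3.97. Each library was counted as 1 replicate, which this spread does not settle, since it may be only technical. Genes named are the 5 subunits, Ahcy, for each pathway list up to 4 called members of lowest p, and the 2 nearest patterns of each subunit; others are said to be named after their values were seen. The members, lists and marker sets were chosen with earlier results of these data known. Exons and transcripts came from GENCODE M21, promoters from RefSeq (GRCm38.p6). Some results of these lists are not reported here.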

Additional observations from a re-analysis of the deposited data

How the results depend on the processing

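All 5 subunits kept their direction and stayed past the threshold under all 13 alternatives: a pseudocount of 0.1, no filter or one of 5 FPKM, no intensity trend, TPM, assigned-read scaling, the replicate block and each library left out. Their log2 fold changes then ran from 0.75 to 0.99 (Nfkb1), 0.69 to 0.93 (Rela), 1.09 to 1.30 (Rel), 1.51 to 1.78 (Nfkb2) and 1.12 to 1.40 (Relb), with a largest adjusted p of 0.00251. Whether the replicate numbers pair the samples is not settled. The deviations of equally numbered libraries correlated at 0.0955, 0.101 and -0.00556. The library of the same number was the best match for replicates 1 and 2 and not for replicate 3. So few libraries cannot decide the question. A replicate block called 2729 genes higher and 2761 lower. The sign of Relb/Rel, at 0.05, reversed to -0.13 without control replicate 2 and to -0.0083 without SAHH-KO replicate 1 (range -0.13 to 0.24 with 1 library left out). The difference between routes moved to 0.22 against Rel alone. In the list of canonical signalling genes 3 were higher and 3 lower with TPM and with assigned-read scaling, and leaving out a library gave 0 to 1 lower, with 0 without SAHH-KO replicate 2 or 3. Among the regulators 3 were higher with TPM, 1 was lower without the filter, and leaving out a library gave 1 to 2 lower, with 1 without control replicate 2 or 3 or SAHH-KO replicate 1. Among NFAT genes 2 were lower with TPM and with assigned-read scaling, and leaving out a library gave 1 to 2. The cause of these moves was not tested.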
